A study of Homo sapiens with 9 samples.

Results

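A set of 6 genes of the DNA mismatch repair pathway was followed on the arrays, MSH6, MSH3, PMS2, PMS1, MLH3 and EXO1, through every probe set annotated to any of them. They had 18 probe sets in all, of which 16 were annotated to a single member gene and 15 were bright enough to be tested. On the whole array 19775 genes had at least 1 probe set of their own, and 13407 of those had 1 past the filter on dim probe sets. PMS2 was not among them, because both of its probe sets were annotated jointly to PMS2 and to PMS2CL, a pseudogene on the same chromosome. They are called the PMS2/PMS2CL probe sets here, and their signal cannot be divided between the gene and the pseudogene.

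The cells were HCT116, a human colon cancer line known for deficient mismatch repair. They carried an inducible expression system in which a regulator plasmid, pSwitch, present in all lines, is activated by mifepristone (MFP). The 3 stable lines were compared, each on 3 arrays. TIG1A stable cells (clone 2) and TIG1B stable cells (clone 8) expressed the corresponding isoform of tazarotene-induced gene 1, a retinoid-responsive gene also called RARRES1, and control stable cells (2G5) carried the empty vector pGene-V5-his B. All cells, control included, received 5 nM MFP for 24 h, as the sample labels give it, whereas the series design text gives the dose in micromolar. Each group was 1 clone, so a difference between isoforms or from control cannot be told apart from a difference between clones, and the p-values measure only the spread among the arrays of a clone. All values are GCOS signal intensities on a linear scale, scaled by the authors to a common target on each array, and differences are given on the log2 scale with their standard error (SE) from limma.

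Mismatch repair corrects base mismatches and small loops left behind by DNA polymerase. MutS homologues read the mismatch: MSH6 serves the complex that reads single-base mismatches and very short loops, and MSH3 the complex that reads larger loops. MutL homologues, among them PMS2, PMS1 and MLH3, are then recruited; PMS2 and MLH3 carry endonuclease activity, and MLH3 also acts at meiotic crossovers. The exonuclease EXO1 removes the stretch with the error, and RPA, PCNA, RFC, DNA polymerase delta and DNA ligase I protect, refill and seal the gap. In colorectal tumours, loss of this pathway is known for unstable microsatellites.

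The promoters of 4 members are shown because the members are described side by side below and their start regions hold different motifs. Each sequence is the RefSeq window on GRCh38.p14 of 300 bases, 250 before and 50 after the gene's annotated start, read 5′ to 3′ on the gene's strand. All 6 members were matched in the promoter table. Capitals mark matches on either strand. The cAMP response element was searched as TGACGTCA. The CCAAT box was searched by the letters of its name, and the GC box as GGGCGG. The first E2F-type motif was searched as TTTCCCGC. The other E2F-type motif was searched as TTTGGCGC.
MSH6, chr2:47782895-47783194, plus strand: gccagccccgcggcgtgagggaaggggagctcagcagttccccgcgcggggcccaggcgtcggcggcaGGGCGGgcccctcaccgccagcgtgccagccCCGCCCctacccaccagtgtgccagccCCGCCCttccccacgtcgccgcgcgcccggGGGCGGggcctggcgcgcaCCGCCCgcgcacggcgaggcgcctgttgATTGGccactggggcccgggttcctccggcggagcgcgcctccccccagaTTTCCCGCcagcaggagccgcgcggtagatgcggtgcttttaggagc
PMS2, chr7:6009057-6009356, minus strand: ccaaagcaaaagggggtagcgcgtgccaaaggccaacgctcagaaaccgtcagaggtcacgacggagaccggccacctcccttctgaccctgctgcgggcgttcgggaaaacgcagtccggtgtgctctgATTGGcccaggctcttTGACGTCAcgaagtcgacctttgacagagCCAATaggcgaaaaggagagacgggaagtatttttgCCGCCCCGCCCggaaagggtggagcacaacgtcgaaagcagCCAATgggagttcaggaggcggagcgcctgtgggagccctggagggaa
MLH3, chr14:75051418-75051717, minus strand: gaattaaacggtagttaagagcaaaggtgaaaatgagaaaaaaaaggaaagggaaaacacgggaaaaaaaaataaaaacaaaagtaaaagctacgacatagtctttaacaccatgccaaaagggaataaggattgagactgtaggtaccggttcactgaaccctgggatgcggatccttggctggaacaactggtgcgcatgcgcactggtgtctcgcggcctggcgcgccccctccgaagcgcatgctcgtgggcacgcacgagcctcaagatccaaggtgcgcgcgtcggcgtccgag
EXO1, chr1:241847954-241848253, plus strand: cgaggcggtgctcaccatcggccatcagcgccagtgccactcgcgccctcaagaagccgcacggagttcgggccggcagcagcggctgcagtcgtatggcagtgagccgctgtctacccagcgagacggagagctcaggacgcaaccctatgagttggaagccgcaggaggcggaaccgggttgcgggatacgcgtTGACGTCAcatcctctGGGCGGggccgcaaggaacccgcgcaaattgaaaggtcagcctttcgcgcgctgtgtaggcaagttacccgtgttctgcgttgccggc
The PMS2 window held 1 cAMP response element, 3 CCAAT boxes and 2 GC boxes, the last of which overlapped each other by 1 base. EXO1 also held 1 cAMP response element, beside 1 GC box, and no other member held that element. It was in 1.98% of 27305 promoters of the same length, the CCAAT box in 35.7% and the GC box in 44.6%. The MSH6 window held 5 GC boxes, 1 CCAAT box and 1 match to the first E2F-type motif, which was in 1.66% of promoters. The MSH3 window, not shown, held 4 GC boxes and 1 match to the other E2F-type motif, in 0.659% of promoters, and that of PMS1, not shown, held 2 CCAAT boxes and 1 GC box. MLH3 held none of the 5 motifs in this window. These are matches of letters and not sites of binding.

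The 9 arrays had median intensities between 59.9 and 73.9, and no arrays held identical values. The probe set 206392_s_at of RARRES1 had an intensity of 62881 ± 4179 in TIG1A cells, 39336 ± 4496 in TIG1B cells and 4.24 ± 1.19 in control cells (SD, n = 3 each), in the order of the labels. Of 8 markers of a colon epithelial line, EPCAM, CDH1, KRT8, KRT18 and KRT19 were above the array median on all 9 arrays, and CDX1, CDX2 and VIL1 were not. Of 8 markers of other cell types, 7 had a probe set, of which COL1A1 and PECAM1 were above the array median on all arrays and CDH5 was below it on all. The summed intensity of the other-cell markers was 1558 to 1902 in TIG1A cells, 1195 to 1212 in TIG1B cells and 771 to 1234 in control cells. Most of it was the brightest COL1A1 probe set, with a mean of 1511 in TIG1A, 901 in TIG1B and 559 in control cells. In TIG1A over control that probe set gave a log2 difference of 1.48 (limma adjusted p 0.0169). The other tested probe sets of these markers were lower there, without passing an adjusted p of 0.05. They gave -0.59 and -0.13 for COL1A1, -0.92 for PECAM1 and -0.81 for CD3E. The part of these markers in the results was not tested.

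Among the members, the PMS2/PMS2CL signal was lower in TIG1B cells, and no probe set of another member passed the test in any comparison. A probe set was called at a Benjamini-Hochberg adjusted p under 0.05 from limma over all 29977 probe sets past the filter, with all 9 arrays in the fit. In TIG1B over control, 1 of the 15 member probe sets was called, PMS2/PMS2CL 221206_at, against 1.78% of all probe sets (1.08% called lower). In TIG1A over control 0 of 15 were called against 6.06% of all, and in TIG1A over TIG1B 0 of 15 against 0.417%. At an unadjusted p under 0.05 the counts were 1 of 15 in TIG1A over control against 25.0% of all probe sets, 4 of 15 in TIG1B over control against 18.5%, and 3 of 15 in TIG1A over TIG1B against 13.3%. The kind of test the study's methods name, run on the same log2 values with Benjamini-Hochberg adjustment, called 0 of the 15 in each comparison. The median log2 difference over the 15 member probe sets was -0.027 in TIG1A over control, -0.038 in TIG1B over control and -0.0039 in TIG1A over TIG1B, beside medians of -0.044, -0.03 and 0.00054 over all probe sets tested. Of the 15, 3 passed the filter through 1 group only (MSH6 211449_at through TIG1A, PMS1 1554743_x_at through TIG1B and PMS1 1554742_at through control), so these counts and medians are a description. The arrays of TIG1B and control did not overlap for 4 of the 15, 2 higher and 2 lower, against 24.9% of all probe sets. Those of TIG1A and control did not overlap for 4, 2 higher and 2 lower, against 30.7%, and those of TIG1A and TIG1B for 6, 2 higher and 4 lower, against 24.1%.

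**Figure D1:**
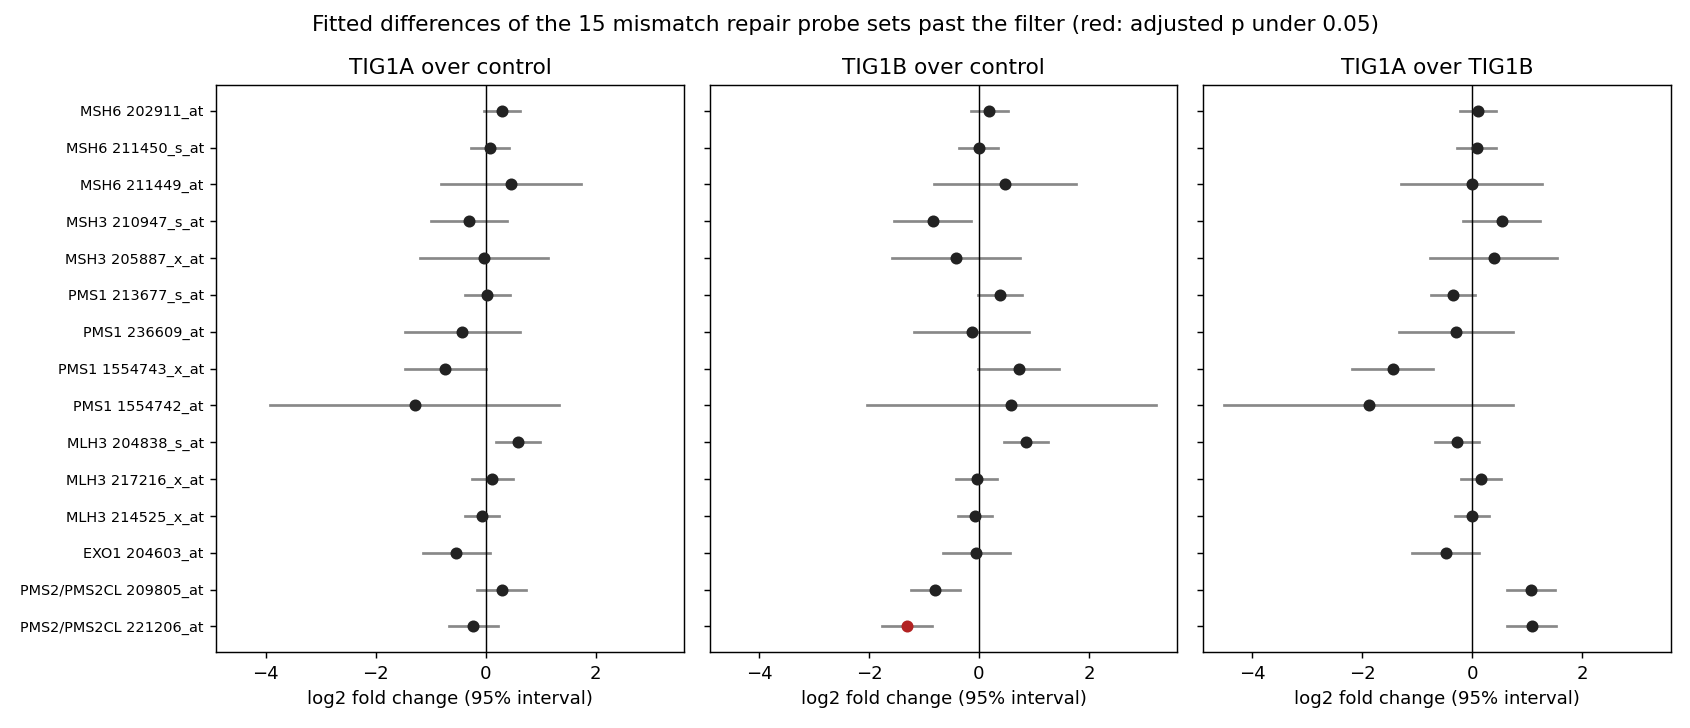
Log2 difference in intensity (horizontal axis) of the 15 tested mismatch repair probe sets (rows) in TIG1A over control, TIG1B over control and TIG1A over TIG1B, with 95% intervals from limma as bars. The red point, PMS2/PMS2CL 221206_at in TIG1B over control at -1.31, is the only value called, and all other intervals belong to probe sets with an adjusted p of 0.05 or more.

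PMS2 encodes the MutL homologue with the endonuclease that nicks the strand to be repaired. The gene lies on distal 7p (chr7:5970925-6009106 on GRCh38.p14) and PMS2CL on the same arm (chr7:6735305-6751601). Probe set 221206_at read 711, 609 and 641 in the TIG1A arrays, 295, 251 and 396 in the TIG1B arrays and 714, 870 and 716 in the control arrays. All TIG1B arrays were below every other array, and the TIG1A arrays lay just below the control arrays. In TIG1B over control the log2 difference was -1.31 ± 0.19 (SE), 2.48-fold lower, with a limma adjusted p of 0.0283. In TIG1A over control it was -0.23 ± 0.19 with a 95% interval of -0.67 to 0.22 and an adjusted p of 0.501. In TIG1A over TIG1B it was 1.08, 2.12-fold, with an interval of 0.63 to 1.53, an unadjusted limma p of 0.000548 and an adjusted p of 0.0793.

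The other PMS2/PMS2CL probe set, 209805_at, had the same order of TIG1B below control without passing the test. It read 895, 750 and 936 in TIG1A cells, 487, 416 and 333 in TIG1B cells and 800, 609 and 709 in control cells. Again all TIG1B arrays were below every other array, while those of TIG1A and control overlapped. In TIG1B over control the log2 difference was -0.79 ± 0.19 (SE), 1.72-fold lower, with an interval of -1.23 to -0.35 and a limma adjusted p of 0.087. In TIG1A over TIG1B it was 1.07, 2.1-fold, with an interval of 0.63 to 1.51 and an adjusted p of 0.0783. TIG1A over control gave 0.29 with an interval of -0.15 to 0.73, so the probe sets differed in sign there, neither past the threshold.

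The call of 221206_at depended on which arrays were in the fit. It was kept without control replicate 1 (adjusted p 0.0374), TIG1A replicate 1 (0.0449) or TIG1B replicate 3 (0.0413). It was lost without control replicate 2 (0.0882) or 3 (0.0601), TIG1A replicate 2 (0.0621) or 3 (0.0572), and TIG1B replicate 1 (0.0888) or 2 (0.0909). The log2 difference stayed between -1.49 and -1.16 throughout, and scaling each array to its median gave -1.16 with an adjusted p of 0.0522.

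**Figure D2:**
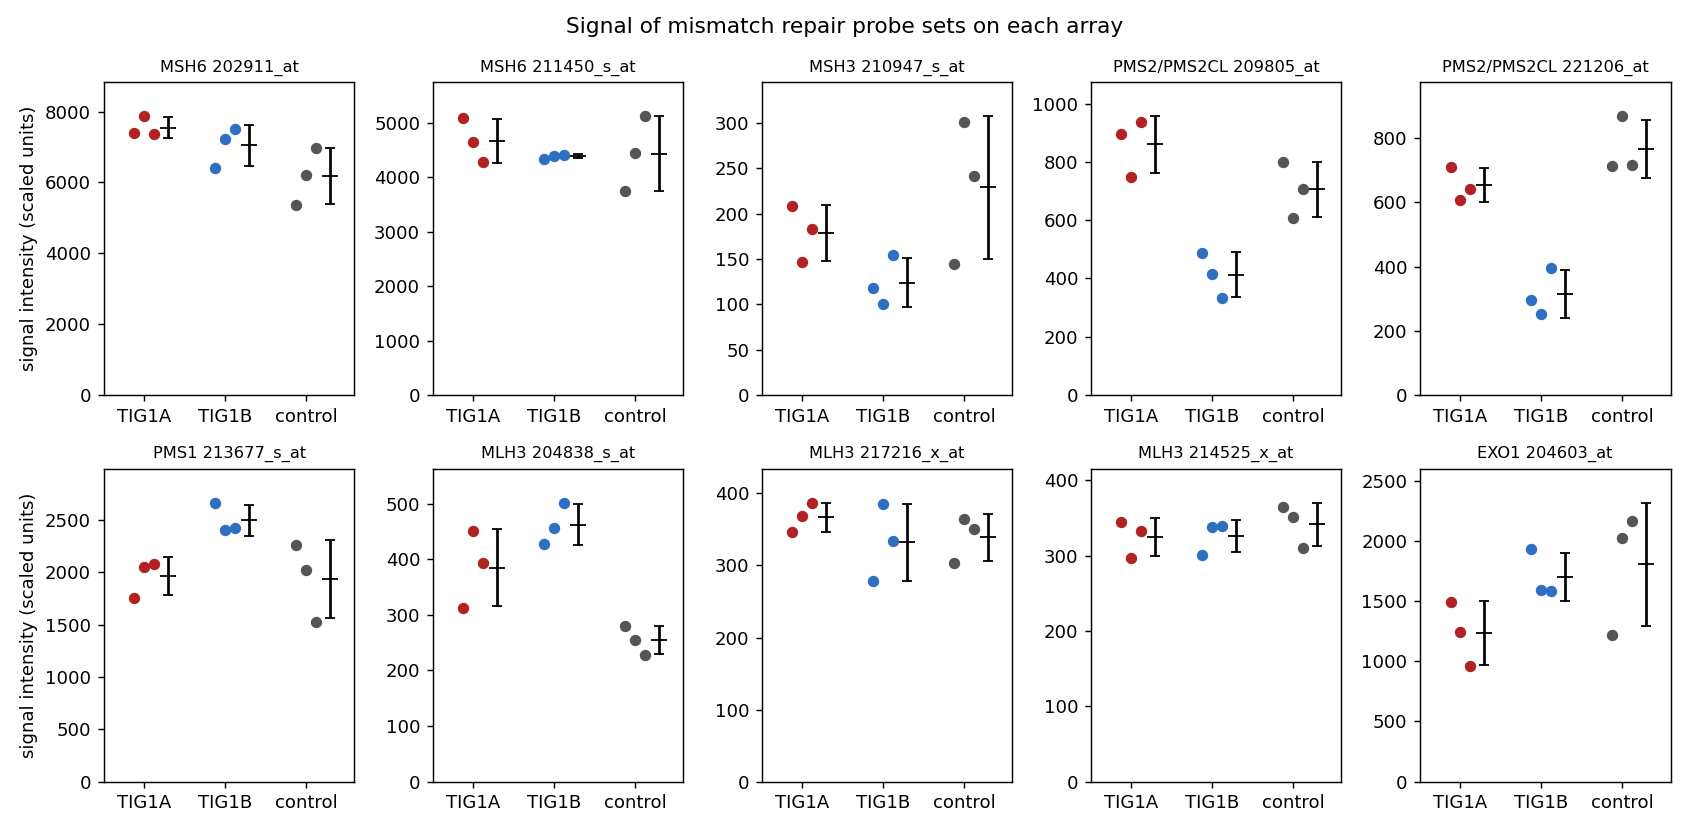
Signal intensity (vertical axis, linear, starting at 0) of 10 member probe sets on each array (points), with the mean (short line) and SD (error bar) beside the 3 arrays of TIG1A, TIG1B and control cells. For PMS2/PMS2CL 221206_at the TIG1B arrays lie between 251 and 396, below the control arrays between 714 and 870. Levels of different panels are of different probes and cannot be compared.

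PMS2 pseudogenes are copies of parts of the gene elsewhere on chromosome 7. Of 20 probe sets annotated to such a copy, 16 were tested and 0 were called by limma in any comparison. At an unadjusted p under 0.05 there were 3, 2 and 0 in TIG1A over control, TIG1B over control and TIG1A over TIG1B. Some of these probe sets were annotated to other genes as well, such as POLR2J, or to the joined locus DTX2P1-UPK3BP1-PMS2P11, and their signal cannot be divided. Over all probe sets 6.06%, 1.78% and 0.417% were called in these comparisons, and 25.0%, 18.5% and 13.3% had an unadjusted p under 0.05, so no call among 16 is near the background. The methods' t-test after Benjamini-Hochberg adjustment also called 0 in each. Their TIG1B over control differences had a median of -0.11 and ran between -0.62 and 0.31, none reaching the -0.79 and -1.31 of the PMS2/PMS2CL probe sets. Their difference from those probe sets was not tested.

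Of the 6 genes beside PMS2, 2 were also lower in TIG1B cells. On the brightest probe set of the 3 nearest tested genes on each side, FSCN1, RNF216, CCZ1, EIF2AK1, USP42 and CYTH3, all 6 differences in TIG1B over control were below zero, with a median of -0.84 and a range of -1.88 to -0.58. FSCN1, an actin-bundling protein, fell to an intensity of 3132 ± 407 in TIG1B cells, against 6060 ± 480 in control cells (SD, n = 3 each), a log2 difference of -0.96 with a limma adjusted p of 0.0298. USP42, a deubiquitinase, fell to 331 ± 46.1 in TIG1B cells, against 610 ± 58.8 in control cells, a log2 difference of -0.89 with a limma adjusted p of 0.0423. The other 4 were not called: RNF216 at -0.74 (adjusted p 0.0505), EIF2AK1 at -0.80 (0.0562), CYTH3 at -0.58 (0.173) and CCZ1, which has a near-identical copy that may share its signal, at -1.88 (0.307). The arrays of CCZ1 overlapped between TIG1B and control. Its probe set, which gave the low end of the range, was dim. It averaged 43 ± 42.9 in TIG1B cells, 58.9 ± 39.5 in TIG1A cells and 118 ± 42.6 in control cells (SD, n = 3 each). The 2 called of 6 stood against 1.85% of all genes on their brightest probe set. Both calls were kept under quantile normalisation, the offset, the stricter filter and limma with trend and robust. They were lost with median centring (adjusted p 0.0789 for FSCN1 and 0.105 for USP42) and with no filter (0.15 and 0.192). The 6 arrays alone (0.107 and 0.124) and the replicate block (0.0714 and 0.102) lost them too. The methods' t-test after adjustment gave 0.116 and 0.135. Among the 9 fits that each left out an array, FSCN1 was called only without control replicate 1 (adjusted p 0.0314) or TIG1A replicate 1 (0.048), the others giving 0.0596 to 0.0962, and USP42 in none (0.0533 to 0.11).

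In TIG1A over control the same 6 genes had a median of -0.032, 4 of them below zero and 0 called against 7.00% of genes. FSCN1 was below control there too, at -0.54 (limma adjusted p 0.0673), as was CCZ1 at -1.35 (0.382), while USP42 was above it at 0.50 (0.102). The TIG1A arrays of these genes did not overlap those of control, which held for 30.7% of all probe sets. The arrays of RNF216 (-0.036), EIF2AK1 (0.31) and CYTH3 (-0.028) overlapped. In TIG1A over TIG1B all 6 were above zero with a median of 0.64, and 2 were called against 0.589% of genes. EIF2AK1, the haem-regulated eIF2-alpha kinase, whose start coordinate is 0.0513 Mb above that of PMS2, had an intensity of 7083 ± 270 in TIG1A cells and 3288 ± 303 in TIG1B cells (SD, n = 3 each), a log2 difference of 1.11 with a limma adjusted p of 0.0408. USP42 averaged 864 ± 82.3 in TIG1A cells and 331 ± 46.1 in TIG1B cells, a log2 difference of 1.39 with a limma adjusted p of 0.027. EIF2AK1 was called in that comparison only without control replicate 1 (0.0313) among the fits with an array left out, the others giving 0.0502 to 0.162, and USP42 only without control replicate 1 (0.0313) or 3 (0.0417), the others giving 0.052 to 0.108. Both calls were also lost with no filter (adjusted p 0.207 for EIF2AK1 and 0.134 for USP42). The 6 arrays alone (0.0506 each) and the replicate block (0.115 each) lost them too. The methods' t-test after adjustment gave 0.0527 and 0.067. Median centring lost EIF2AK1 (0.0515) and kept USP42 (0.0462). Both were kept under quantile normalisation, the offset, the stricter filter and limma with trend and robust. TIG1A over TIG1B shares the TIG1B arrays with TIG1B over control. Whether copy number of distal 7p differed between the clones was not tested.

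For the neighbours of the other members the medians in TIG1B over control were 0.068 for MSH6, 0.23 for MSH3, -0.06 for PMS1, 0.044 for MLH3 and 0.07 for EXO1. Single differences ran from -0.23 to 0.14 for MSH6, -0.41 to 0.53 for PMS1 and -0.82 to 0.15 for MLH3. They ran wider for MSH3 (-2.11 to 1.92) and EXO1 (-2.28 to 1.33), where both ends of each range came from dim probe sets. Around MSH3 these were CKMT2, with a mean of 24.8 in TIG1B and 91.3 in control cells, and THBS4, with 113 and 45.1. Around EXO1 they were PLD5, with 7.49 and 25.1, and WDR64. None but WDR64 was called. Of these 30 neighbours 1 was called in that comparison, against 1.85% of all genes on their brightest probe set, and it was WDR64 beside EXO1. Its probe set was dim, with a mean intensity of 40.1 ± 9.0 in TIG1A cells, 70.4 ± 15.8 in TIG1B cells and 27.7 ± 3.13 in control cells (SD, n = 3 each), and passed the filter only through TIG1B, where it was high. The difference between the PMS2 neighbours and the others was not tested.

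**Figure D3:**
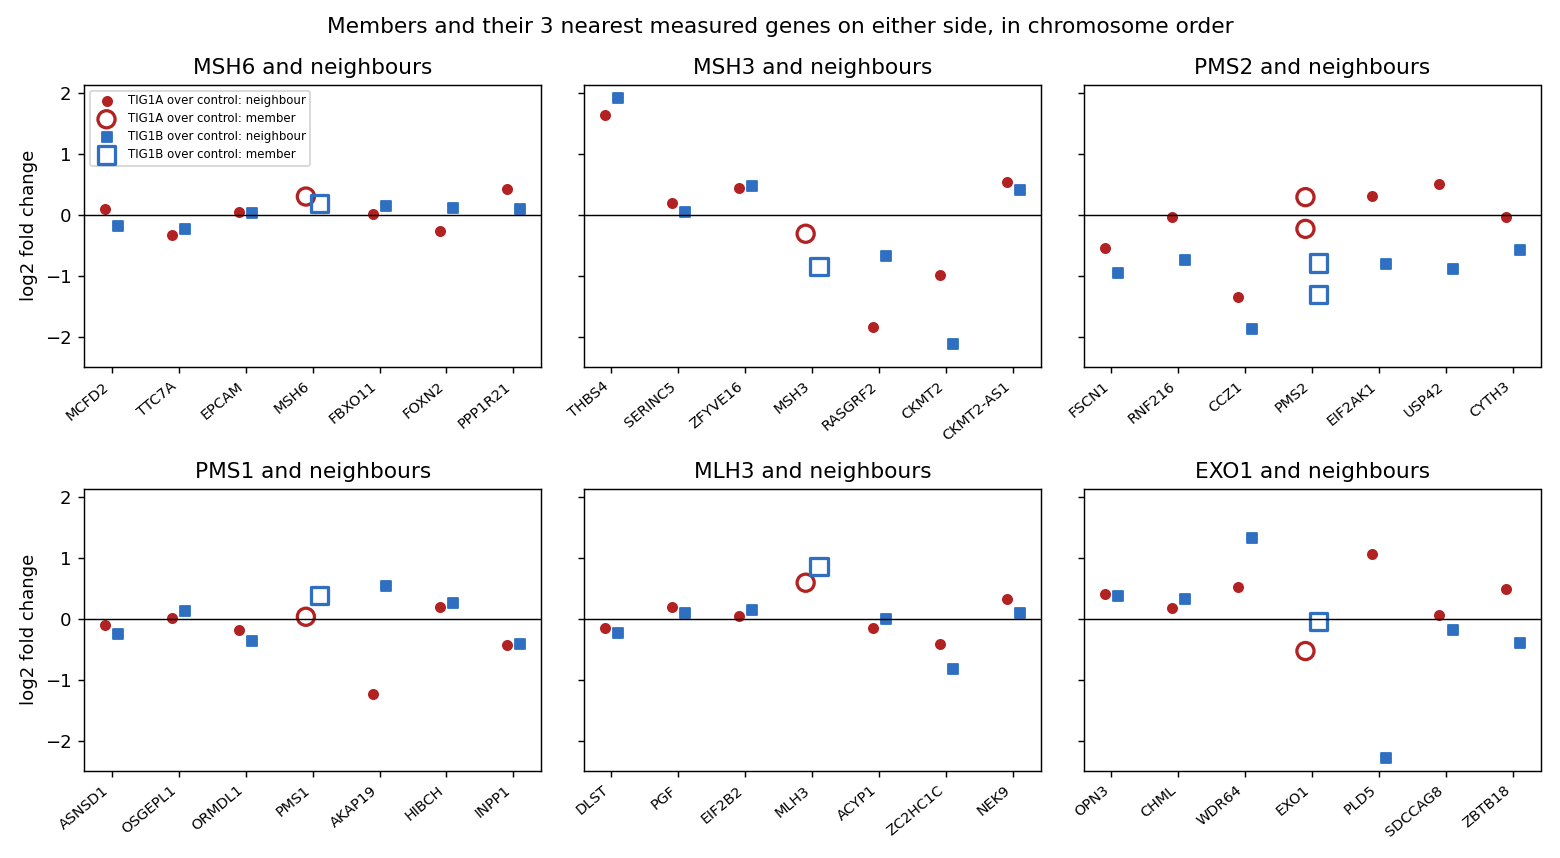
Log2 difference (vertical axis) of each member (large open symbols, 2 probe sets for PMS2/PMS2CL) and of its 3 nearest tested genes on either side (small filled symbols), in genome order (horizontal axis), for TIG1A over control (red circles) and TIG1B over control (blue squares), 1 panel a member. Around PMS2 all 6 neighbours lie below zero in TIG1B over control, with a median of -0.84, beside a median of -0.032 in TIG1A over control.

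MLH3, the MutL homologue of meiotic crossovers (chr14:75013775-75051467), had 3 tested probe sets that did not behave alike. Probe set 204838_s_at read 313, 451 and 393 in TIG1A cells, 428, 457 and 502 in TIG1B cells and 280, 255 and 228 in control cells. All 6 TIG1 arrays were above the control arrays. TIG1B over control was 0.86 ± 0.17 (SE), 1.82-fold, with an interval of 0.46 to 1.26 and a limma adjusted p of 0.0551, and TIG1A over control was 0.59 ± 0.17, 1.5-fold, with an interval of 0.19 to 0.99 and an adjusted p of 0.085. Both missed the threshold. In TIG1A over TIG1B the difference was -0.28 with an interval of -0.67 to 0.12.

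The other probe sets of MLH3 had differences near zero. Probe set 217216_x_at averaged 367 ± 20.3 in TIG1A cells, with arrays at 347, 368 and 387, and read 278, 385 and 334 in TIG1B cells and 303, 364 and 351 in control cells. Its log2 difference was 0.12 in TIG1A over control and -0.038 in TIG1B over control. Probe set 214525_x_at read 345, 297 and 333 in TIG1A cells, 301, 338 and 339 in TIG1B cells and 365, 351 and 310 in control cells, with differences of -0.073 and -0.069. The groups overlapped on both, so the higher level on 204838_s_at was seen on 1 of 3 probe sets.

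PMS1, a MutL homologue without a settled part in mismatch repair (chr2:189784450-189877629), had 4 tested probe sets, and 0 were called. Its brightest, 213677_s_at, read 1754, 2049 and 2083 in TIG1A cells, 2668, 2402 and 2421 in TIG1B cells and 2261, 2025 and 1530 in control cells. The TIG1B arrays were above all others, and TIG1A and control overlapped. TIG1B over control was 0.38 ± 0.17 (SE) with an interval of -0.021 to 0.79 and a limma adjusted p of 0.294. TIG1A over control was 0.032 with an interval of -0.37 to 0.44, and TIG1A over TIG1B was -0.35 with an interval of -0.75 to 0.053.

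A dim PMS1 probe set, 1554743_x_at, passed the filter through TIG1B alone, the group where it was high, and its values are a description. It read 28.2, 41.1 and 27.5 in TIG1A cells, below the array median on every array, 105, 64.8 and 96 in TIG1B cells and 42.5, 80.8 and 42.5 in control cells. The other tested PMS1 probe sets, 236609_at and 1554742_at, were dim too, with adjusted p-values of 0.901 and 0.819 in TIG1B over control. The remaining PMS1 probe set, 228803_at, lay between 4.74 and 35.5 and was not tested.

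MSH6, which reads single-base mismatches (chr2:47783145-47810101), was bright and differed little between the lines. Probe set 202911_at read 7387, 7882 and 7367 in TIG1A cells, 6400, 7220 and 7511 in TIG1B cells and 5366, 6213 and 6964 in control cells. All TIG1A arrays were above the control arrays, with a log2 difference of 0.30 ± 0.14 (SE), an interval of -0.038 to 0.63 and a limma adjusted p of 0.248. TIG1B over control was 0.19 with an interval of -0.14 to 0.53, and its arrays overlapped those of control. TIG1A over TIG1B was 0.10 with an interval of -0.23 to 0.44.

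Probe set 211450_s_at of MSH6 read 5086, 4653 and 4274 in TIG1A cells, 4343, 4401 and 4410 in TIG1B cells and 3742, 4443 and 5129 in control cells. The groups overlapped, with log2 differences of 0.082 (interval -0.27 to 0.43) in TIG1A over control and -0.0055 (interval -0.36 to 0.35) in TIG1B over control. A dimmer probe set, 211449_at, had arrays between 26.6 and 89.9 within the control group alone and was not called. The fourth, 1569034_a_at, lay between 3.46 and 10.3 and was not tested.

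MSH3, which reads larger loops (chr5:80654652-80876815), was closer to the array median. Probe set 210947_s_at read 208, 147 and 183 in TIG1A cells, 118, 100 and 154 in TIG1B cells and 144, 301 and 242 in control cells. TIG1B had the lowest arrays, although control replicate 1 and TIG1A replicate 2 fell within its range. TIG1B over control was -0.84 ± 0.30 (SE), 1.79-fold lower, with an interval of -1.54 to -0.15, a limma p of 0.0231 unadjusted and 0.193 adjusted. TIG1A over control was -0.31 ± 0.30 (SE) with an adjusted p of 0.561, and TIG1A over TIG1B was 0.54 with an interval of -0.16 to 1.23.

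The second tested MSH3 probe set, 205887_x_at, overlapped in all groups. It read 138, 106 and 64.7 in TIG1A cells, 110, 46 and 83.3 in TIG1B cells and 53.1, 165 and 115 in control cells, with differences of -0.027 in TIG1A over control and -0.42 in TIG1B over control (adjusted p 0.696). The third, 229662_at, lay between 6.55 and 57.7 and was not tested.

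EXO1, the exonuclease that removes the stretch with the error (chr1:241847986-241889939), had 1 probe set, 204603_at. It read 1496, 1243 and 963 in TIG1A cells, 1933, 1596 and 1580 in TIG1B cells and 1216, 2027 and 2168 in control cells. All TIG1A arrays were below the TIG1B arrays, while control overlapped both, with its replicate 1 the lowest of its arrays. TIG1A over control was -0.53 ± 0.26 (SE) with an interval of -1.13 to 0.082 and a limma adjusted p of 0.257. TIG1A over TIG1B was -0.48 with an interval of -1.09 to 0.13, and TIG1B over control was -0.044 with an interval of -0.65 to 0.56.

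Some genes of excision and resynthesis were lower in TIG1A cells. Of the 14 genes for excision and resynthesis (PCNA, RFC1 to RFC5, RPA1 to RPA3, POLD1 to POLD4 and LIG1), all of which were tested on their brightest probe set, 3 fell and 0 rose in TIG1A over control, against 3.62% of genes called lower. The median of the 14 was -0.35, beside -0.031 over all genes, and 11 were below zero. In TIG1A over control 9 of the 14 had an unadjusted limma p under 0.05, against 25.0% of all probe sets. In TIG1B over control 0 of the 14 were called by limma, against 1.85% of genes. There 3 had an unadjusted p under 0.05, against 18.5% of all probe sets, and the median was -0.12, beside -0.011 over all genes. In TIG1A over TIG1B 0 were called, against 0.589% of genes. There 6 had an unadjusted p under 0.05, against 13.3% of all probe sets, and the median was -0.30, beside 0.0024 over all genes. The methods' t-test with Benjamini-Hochberg adjustment called 0 in each. The list was chosen with earlier results of these data known, so its counts and medians are a description.

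POLD1, the catalytic subunit of DNA polymerase delta, read 627, 577 and 579 in TIG1A cells, 892, 715 and 691 in TIG1B cells and 1212, 1502 and 938 in control cells. All TIG1A arrays were below all others, and TIG1A over control was -1.01 ± 0.20 (SE) with a limma adjusted p of 0.0313. POLD3, an accessory subunit of the same polymerase, read 517, 518 and 504 in TIG1A cells, 706, 654 and 690 in TIG1B cells and 913, 997 and 683 in control cells, a TIG1A over control difference of -0.73 ± 0.16 with an adjusted p of 0.042. LIG1, the ligase that seals the refilled strand, read 564, 506 and 513 in TIG1A cells, 626, 538 and 697 in TIG1B cells and 925, 1102 and 749 in control cells, a difference of -0.79 ± 0.18 with an adjusted p of 0.0444. In TIG1B over control these genes gave -0.65, -0.32 and -0.57, with adjusted p-values of 0.141, 0.339 and 0.152.

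The count of 3 depended on the arrays and the scaling. Without control replicate 1 the count was 4, of which 3 were lower and 1 higher, and POLD3 (adjusted p 0.061) and LIG1 (0.0615) were not among them. It was 3 without control replicate 3, the same genes (0.0283 for POLD1, 0.0259 for POLD3 and 0.0414 for LIG1), 1 without TIG1B replicate 1 (POLD1, 0.0397), and 0 without control replicate 2, any TIG1A array or TIG1B replicate 2 or 3. With each array scaled to its median it was 0, where the median of all probe sets moved to 0.121 in TIG1A over control.

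RFC5, a subunit of the clamp loader, had probe sets that disagreed. Its brightest differed by -0.13 in TIG1A over control (adjusted p 0.549). Probe set 213734_at read 445, 668 and 1068 in TIG1A cells, 723, 818 and 664 in TIG1B cells and 176, 227 and 346 in control cells, and was 1.51 higher in TIG1A over control with a limma adjusted p of 0.0489. Of the 9 fits that each left out an array, only that without TIG1A replicate 1 kept this call (0.0458), and the others gave 0.0515 to 0.137. It was also lost with no filter (0.157), the 6 arrays alone (0.121), the replicate block (0.0607) and the methods' t-test after adjustment (0.201). RPA3, the small subunit of the single-strand binding protein RPA, also lies on 7p (chr7:7636518-7718607) and is named after its values were seen. It read 6208, 5734 and 5467 in TIG1A cells, 4030, 3325 and 3466 in TIG1B cells and 6364, 6376 and 5309 in control cells. The TIG1B arrays were below all others, with a TIG1B over control difference of -0.74 ± 0.14 (SE) and an adjusted p of 0.0513, which missed the threshold. POLD2 (chr7:44114680-44124325) and RFC2 (chr7:74231502-74254399) of the same list are on chromosome 7 too. On their brightest probe sets they gave -0.16 (limma adjusted p 0.609) and -0.32 (0.526) in TIG1B over control, and the arrays overlapped.

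**Figure D4:**
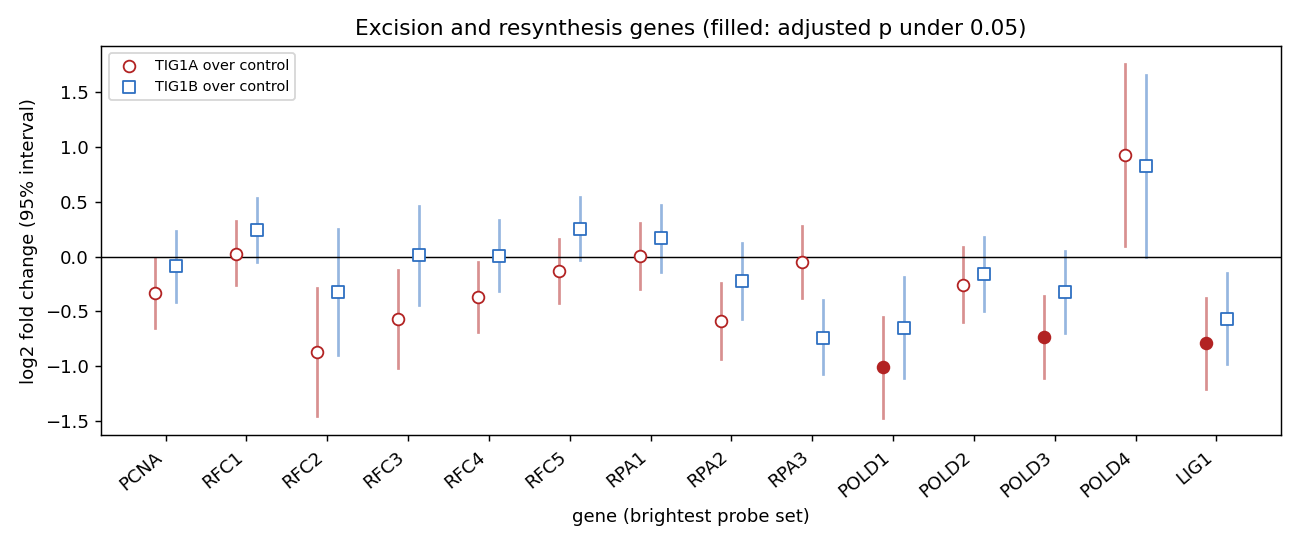
Log2 difference with its 95% interval (vertical axis) of the 14 excision and resynthesis genes (horizontal axis) on their brightest probe set in TIG1A over control (red circles) and TIG1B over control (blue squares), with filled points for adjusted p under 0.05. The 3 filled points are POLD1, POLD3 and LIG1 in TIG1A over control, between -1.01 and -0.73.

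Among 11 partners and relatives of the pathway (MSH4, MSH5, MCM8, MCM9, FAN1, SETD2, MBD4, MUTYH, POLE, BLM and WRN), 9 were tested on their brightest probe set. This list too was chosen with earlier results known, and its counts are a description. In TIG1A over control 1 rose, against 3.38% of genes called higher, and 0 fell, against 3.62% called lower. The median there was -0.35, beside -0.031 over all genes. An unadjusted limma p under 0.05 was reached by 4 of the 9, against 25.0% of all probe sets. In TIG1B over control and TIG1A over TIG1B 0 were called by limma, against 1.85% and 0.589% of genes. There 1 and 3 had an unadjusted p under 0.05, against 18.5% and 13.3% of all probe sets. The methods' t-test after adjustment called 0 in each comparison. The gene that rose was SETD2, whose histone mark is known to help bring MSH6 to chromatin. Its probe set 212493_s_at read 1066, 1622 and 1497 in TIG1A cells, 1159, 1181 and 1367 in TIG1B cells and 800, 753 and 841 in control cells, a TIG1A over control difference of 0.78 ± 0.18 (SE) with a limma adjusted p of 0.0477. Its other 2 tested probe sets gave -0.05 and 0.21, and its call held only without TIG1A replicate 1 (adjusted p 0.0375) among the 9 fits that each left out an array, the others giving 0.0639 to 0.14.

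MCM8, a helicase of recombination repair, differed by -0.53 on its brightest probe set in TIG1A over control (adjusted p 0.13). On the dimmer 233560_x_at it fell to 56.6, 106 and 87.9 in TIG1A cells, against 287, 242 and 268 in control cells, with 156, 120 and 102 in TIG1B cells. The TIG1A over control difference was -1.71 with a limma adjusted p of 0.0155, and it was lost without control replicate 2 (0.054) or TIG1A replicate 3 (0.0559), with no filter (0.0782), with the 6 arrays alone (0.0566), with the replicate block (0.0525) and with the methods' t-test after adjustment (0.0954). MUTYH, the glycosylase that removes adenine opposite oxidised guanine, differed by -0.86 in TIG1A over TIG1B (adjusted p 0.172).

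The genes most alike to each member over the 9 arrays were found by Pearson's r of log2 intensity among 13407 genes, a description in which all points share the same arrays and clones. For PMS2/PMS2CL 209805_at they were TSPAN13 (r = 0.965) and EIF2AK1 (r = 0.959), both on chromosome 7, and SYTL5 on the X chromosome (r = 0.940). For MSH6 they were TMEM64 (r = 0.974), NAA60 (r = 0.961) and RMND5A (r = 0.956), the last on chromosome 2 like MSH6. For MSH3 they were SPNS1 (r = 0.958), HGH1 (r = 0.944) and TAMALIN (r = 0.936). For PMS1 they were TMEM218 (r = 0.967), PAM (r = 0.955) and CRYBG1 (r = 0.953). For MLH3 204838_s_at they were HSPA4L (r = 0.972), CRADD (r = 0.971) and PTPN11 (r = 0.965). For EXO1 they were CEP131 (r = 0.980), TIMM10 (r = 0.972) and SCAMP3 (r = 0.967), the last on chromosome 1 like EXO1. The genes most alike to MSH3, PMS1 and MLH3 lay on other chromosomes than the member.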

How the data were processed

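Total RNA of 9 cultures labelled as biological triplicates of 3 clones was hybridised to human Affymetrix arrays with 54675 probe sets. The deposited values are signal intensity per probe set, made by the authors with GCOS and scaled on each array to a target of 500 (trimmed mean over the array); probe-level data and detection calls were not used here. Probe sets were named from GEO's platform annotation: 41097 had 1 gene symbol, 1801 several and 11777 none. Tests used log2 intensity, with 1 as the lowest value allowed. The filter kept probe sets that reached the array median on at least 2 of the 3 arrays of any group, 29977 in all. The 3 comparisons came from 1 limma 3.58.1 fit (R 4.3.3) with Benjamini-Hochberg adjustment over all kept probe sets, and the script was tested on simulated data. The genes named were all members, list genes past the threshold or with the smallest p, the 3 nearest tested genes on each side of a member and the 3 most alike in pattern; a gene with several probe sets was represented by its brightest. Members and lists were chosen with earlier results of these data known. Some genes of the pathway are not reported here. Alternatives were quantile normalisation, median centring, an offset of 50, a filter at the 75th percentile or none, each comparison's 6 arrays alone, a replicate block, limma with trend and robust, the methods' t-test and leaving out each array.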

Additional observations from a re-analysis of the deposited data

How the results depend on the processing

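For PMS2/PMS2CL 221206_at, TIG1B over control was past the threshold under quantile normalisation, the offset of 50, the 75th percentile filter, trend and robust and the unadjusted t-test. It was not with median centring (-1.16, adjusted p 0.0522), no filter (-1.31, 0.125), the 6 arrays alone (-1.31, 0.0993) or the adjusted t-test (-1.31, 0.135), and over single arrays left out it ran from -1.49 to -1.16 (adjusted p 0.0374 to 0.0909). With group means taken out, same-numbered arrays of different groups had correlations between -0.0369 and 0.192, and unlike-numbered ones between -0.126 and 0.0895. Between TIG1A and TIG1B the same-numbered values were 0.192, 0.0494 and 0.0644. Those of a replicate 1 with another number there lay between -0.126 and -0.104. Whether replicates were paired was not tested. With the replicate block, 221206_at in TIG1B over control gave -1.31 (adjusted p 0.0829). The excision count of TIG1A over control was then 0, and no other member's call changed. For 209805_at, TIG1B over control (-0.79) passed under the 75th percentile filter (0.0181), trend and robust (0.0303) and the unadjusted t-test (0.016). TIG1A over TIG1B passed under the offset (0.99 for 209805_at and 0.97 for 221206_at; adjusted p 0.0416 and 0.0442), and under the 75th percentile filter, trend and robust and the unadjusted t-test (1.07 and 1.08). Of the 13 single-gene member probe sets, main count 0, the count called was 1 in TIG1A over control under the 75th percentile filter and the unadjusted t-test, 1 in TIG1B over control under quantile normalisation, the offset, the 75th percentile filter, trend and robust and the unadjusted t-test, and 2 in TIG1A over TIG1B under the unadjusted t-test. The excision count of 3 in TIG1A over control became 2 with quantile normalisation (POLD3 lost, adjusted p 0.0505), 0 with median centring, no filter, the 6 arrays alone and the adjusted t-test, 5 with the offset, 6 with the 75th percentile filter or trend and robust and 7 with the unadjusted t-test, all lower, and 0 to 4 over single arrays left out (the 4 with 1 higher). In TIG1B over control, main count 0, it was 1 with quantile normalisation, the offset or trend and robust, 3 with the 75th percentile filter, all lower, 4 with the unadjusted t-test (3 lower, 1 higher) and 0 to 1 over arrays left out (1 higher without control replicate 1); in TIG1A over TIG1B it was 1, higher, with the 75th percentile filter or trend and robust and 8 (7 lower, 1 higher) with the unadjusted t-test. For these counts of member probe sets and excision genes, the share called over all features under the same setting is not given here. A larger count under another setting is therefore a description and not stronger evidence for the list. Over the 45 member results, 37 of 831 alternative values had another sign than the reported one, all of differences that were not called, and the called 221206_at kept its sign in every alternative. Median centring moved the share of lower calls over all probe sets to 21.9% of calls in TIG1A over control, against 52.8% in the main analysis, and to 29.5% against 60.7% in TIG1B over control. The causes were not tested. With 3 arrays a group, precision is limited by their number, and 3 of the 18 member probe sets were too dim to test.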
